A study of Mus musculus with 7 samples.

Results

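The Gimap genes encode the GTPases of immunity-associated proteins, and their levels are described here in kidneys of lupus-prone mice given an Aurora kinase B inhibitor or vehicle. The members were the rows of the count table whose Ensembl identifiers carry the GRCm38 symbols Gimap1, Gimap3, Gimap4, Gimap5, Gimap6, Gimap7, Gimap8 and Gimap9. All 8 were found among 53465 genes, and all 8 were among the 15774 genes that passed the filter on low counts. The lowest count of any member in any library was 17 (Gimap7 in AZD1152 replicate 3), so no member passed through 1 group alone. All 7 mice were of the strain MRL/lpr, which carries the lpr mutation of the death receptor gene Fas and develops swollen lymphoid organs and nephritis. Of these, 4 had received AZD1152 (barasertib), whose active form inhibits Aurora kinase B, a kinase of chromosome segregation, and 3 had received vehicle. The labels give no age, sex, dose or schedule, and no strain without the lpr mutation was included. Each mouse gave 1 poly(A)-selected library of whole renal tissue, with totals between 14692113 and 17036862 read counts, of which the 8 members held 2529 to 4313.

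Gimap proteins are GTP-binding proteins, several of them anchored to intracellular membranes, and are related in their GTPase domain to the septins. They are best known in T and B lymphocytes, where several of them control how long resting cells survive, and transcripts of several members are also found in endothelial cells. The genes lie side by side in 1 cluster in mammals, and loss of Gimap5 in rats and mice causes a shortage of lymphocytes.

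Gimap3 and Gimap7 fell in AZD1152 kidneys to 38.5% and 35.4% of their mean with vehicle, Gimap4 fell to 76.3%, and the other 5 members did not pass the test, with means between 79.6% and 102% of those with vehicle. Differences between members were tested in 28 pairs, of which 0 passed after adjustment (smallest adjusted p = 0.141, exact permutation test). With so few libraries a pair could pass only if many pairs reached the smallest possible p, so this test cannot decide whether members differed. In CPM (read counts relative to library size, scaled between libraries with TMM factors), the 8 members summed to 211.8, 227.6 and 239.1 in vehicle replicates 1 to 3 and to 172.3, 179.5, 184.3 and 179.0 in AZD1152 replicates 1 to 4. Most of this sum came from Gimap4, Gimap8 and Gimap6. At a Benjamini-Hochberg adjusted p under 0.05 over all genes in edgeR's quasi-likelihood test, 3 of 8 members (37.5%) were lower, beside 4.81% of all genes tested, and 0 of 8 were higher, beside 3.02%. The groups did not overlap, with vehicle higher, for 4 of 8 members (Gimap3, Gimap4, Gimap5 and Gimap7), beside 11.6% of all genes. The median log2 fold change of the 8 members was -0.27, beside -0.0006 for all genes. In bulk tissue, fewer cells of a type and less RNA per cell cannot be told apart.

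**Figure D1:**
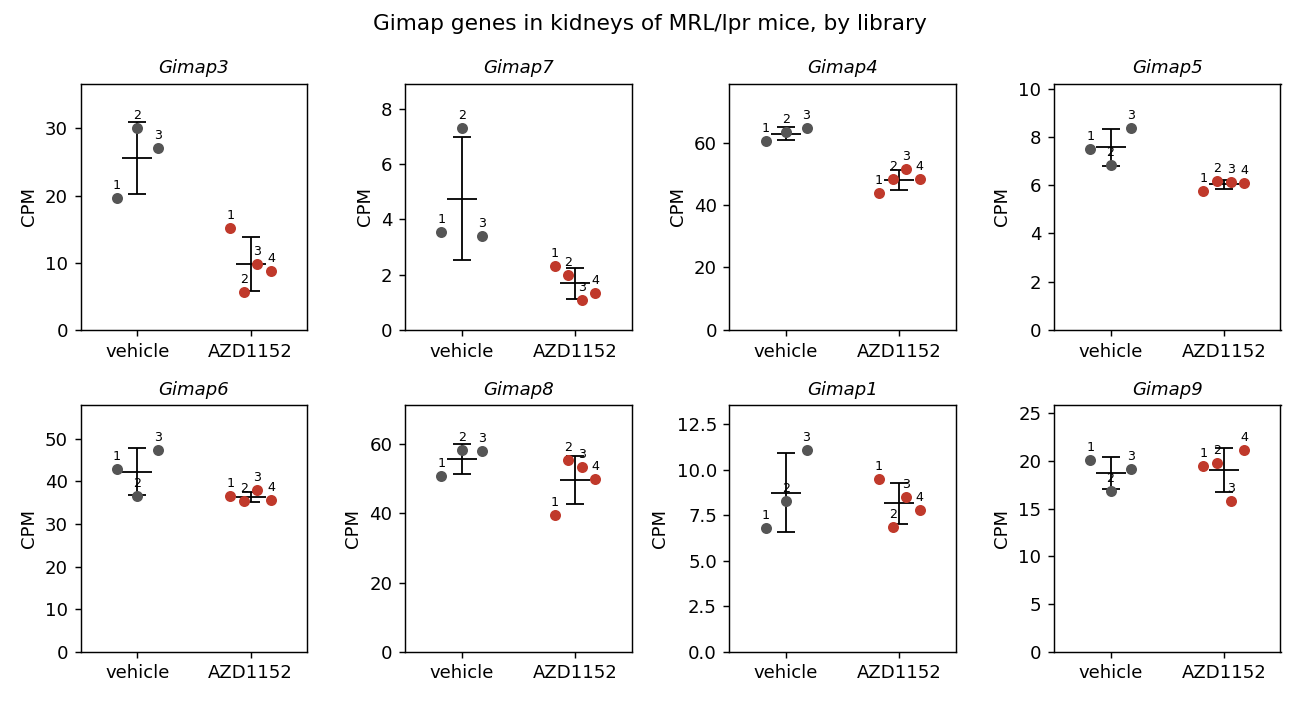
CPM of each Gimap gene (y axis, from 0) in 3 vehicle (grey) and 4 AZD1152 (red) libraries, numbered by replicate, with the mean and SD of each group in black. The groups do not overlap for Gimap3, Gimap7, Gimap4 and Gimap5 and do for the other members.

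Gimap3, a close relative of Gimap5 that acts with it in T cell survival and exists only as a pseudogene in humans, was among the members that fell most. Its level was 19.6, 30.1 and 27.1 CPM in vehicle replicates 1 to 3 and 15.2, 5.64, 9.82 and 8.70 CPM in AZD1152 replicates 1 to 4. The groups did not overlap, AZD1152 replicate 1 was the highest of the treated libraries, and AZD1152 replicate 2 was the lowest. The log2 fold change was -1.37 ± 0.29 (SE), with a 95% interval of -2.02 to -0.73 (edgeR adjusted p = 0.0263). Gimap3 (ENSMUSG00000039264) lies on GRCm38 chromosome 6 from 48764464 to 48770851, on the minus strand.

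Gimap7, whose human counterpart stimulates GTP hydrolysis by its relative GIMAP2, had 3.55, 7.30 and 3.38 CPM with vehicle and 2.30, 1.99, 1.08 and 1.34 CPM with AZD1152. Vehicle replicate 2 stood well above the other vehicle libraries, and every treated library was below all of them. The log2 fold change was -1.49 ± 0.36 (SE), with a 95% interval of -2.30 to -0.68 (edgeR adjusted p = 0.0401). Gimap7 (ENSMUSG00000043931; chromosome 6, 48718621 to 48724636, plus strand) was the member with the fewest reads, with 61 to 128 counts per library with vehicle and 17 to 38 with AZD1152.

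Gimap4, which speeds the death of T cells and is not needed for their development, was the most abundant member in every vehicle library. It had 60.6, 63.4 and 64.6 CPM with vehicle and 43.8, 48.2, 51.5 and 48.3 CPM with AZD1152. Each group was narrow and the groups were well apart. The fall was small, with a log2 fold change of -0.39 ± 0.07 (SE) and a 95% interval of -0.56 to -0.23 (edgeR adjusted p = 0.0197). Gimap4 (ENSMUSG00000054435) spans chromosome 6 from 48684549 to 48692060 on the plus strand.

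These 3 calls rested on few mice. When a vehicle library was left out, Gimap3 no longer passed without replicate 2 (edgeR adjusted p = 0.0572) or replicate 3 (0.0987), and Gimap4 without replicate 1 (0.052) or replicate 3 (0.0795). When a treated library was left out, Gimap3 no longer passed without replicate 3 (edgeR adjusted p = 0.0536) or replicate 4 (0.0697), and Gimap4 without replicate 4 (0.0515). The Gimap7 call held only without AZD1152 replicate 1. Its edgeR adjusted p was 0.0668, 0.0918 and 0.0773 with vehicle replicate 1, 2 or 3 removed, and 0.0647, 0.0765 and 0.0977 with AZD1152 replicate 2, 3 or 4 removed. The number of members called was 0 without vehicle replicate 3 or AZD1152 replicate 4, and 1 without vehicle replicate 1 or 2 or AZD1152 replicate 3. It was 2 without AZD1152 replicate 2. The estimates stayed below 0 without any 1 library, at -1.67 to -1.19 for Gimap3, -1.68 to -1.04 for Gimap7 and -0.44 to -0.35 for Gimap4.

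Gimap5, the lysosomal member whose loss depletes T cells, had 7.50, 6.84 and 8.37 CPM with vehicle and 5.74, 6.17, 6.12 and 6.09 CPM with AZD1152. All treated libraries were below all vehicle libraries, but the log2 fold change of -0.33 ± 0.14 (SE) did not pass the test (edgeR unadjusted p = 0.0385, adjusted p = 0.173). Gimap6, which binds the autophagy protein GABARAPL2, had 42.9, 36.5 and 47.5 CPM with vehicle and 36.7, 35.4, 37.9 and 35.7 CPM with AZD1152. Here vehicle replicate 2 fell among the treated libraries, and the log2 fold change was -0.22 ± 0.10 (SE; edgeR adjusted p = 0.201). Gimap5 (ENSMUSG00000043505) spans chromosome 6 from 48746197 to 48754210 on the plus strand and Gimap6 (ENSMUSG00000047867) from 48701582 to 48708225 on the minus strand.

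Gimap8, the largest member, which carries several GTPase domains in a row, had 50.7, 58.4 and 57.9 CPM with vehicle and 39.6, 55.5, 53.5 and 49.96 CPM with AZD1152. AZD1152 replicate 1, the treated library highest in Gimap3, was the lowest of all libraries in Gimap8, and the groups overlapped. The log2 fold change was -0.17 ± 0.12 (SE), with a 95% interval of -0.43 to 0.10 (edgeR adjusted p = 0.431). Gimap1, required for mature T and B cells, had 6.81, 8.27 and 11.1 CPM with vehicle and 9.49, 6.83, 8.48 and 7.78 CPM with AZD1152. Its groups overlapped throughout (log2 fold change -0.10 ± 0.19, 95% interval -0.53 to 0.33, edgeR adjusted p = 0.798). Gimap9 had 20.1, 16.9 and 19.2 CPM with vehicle and 19.5, 19.8, 15.8 and 21.2 CPM with AZD1152. No order of the groups is visible in these values (log2 fold change 0.02 ± 0.12, 95% interval -0.26 to 0.30, edgeR adjusted p = 0.931). The interval of Gimap9 leaves room for a change of up to 0.30 on the log2 scale, so a small change was not detectable with these mice. On chromosome 6, Gimap8 (ENSMUSG00000064262) spans 48647234 to 48660875, Gimap9 (ENSMUSG00000051124) 48676129 to 48679114 and Gimap1 (ENSMUSG00000090019) 48739054 to 48743795, all on the plus strand.

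The 95% intervals of Gimap3 and Gimap7 both lay below those of all other 6 members, the lowest of which began at -0.64 (Gimap5). Differences between members were also tested on the ratio of their levels within each library, which needs no scaling. Of 28 pairs, 7 had ratios that did not overlap between the groups, all of them pairs of Gimap3 or Gimap7 with another member. In an exact permutation test over the 35 arrangements of the libraries (two-sided), 4 pairs had p = 0.0286, the smallest value the design allows. After Benjamini-Hochberg adjustment over the 28 pairs, 0 passed, and the smallest adjusted p in this exact permutation test was 0.141. A pair could pass only if many of the 28 pairs reached the smallest value, so this test cannot decide whether members differed. The log2 ratio of Gimap3 to Gimap9 went from 0.43 ± 0.44 (SD, n = 3) to -1.02 ± 0.64 (SD, n = 4). That of Gimap3 to Gimap7 was 2.47 ± 0.47 with vehicle and 2.44 ± 0.69 with AZD1152, a difference smaller than the spread between mice. The ratio of Gimap6 to Gimap8 also differed by less than that spread, at -0.40 ± 0.24 and -0.44 ± 0.23.

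Per kilobase of annotated exon, Gimap4 had the highest level with vehicle, 34.2 ± 1.12 CPM per kb (SD, n = 3). It was followed by Gimap8 (15.04 ± 1.17 CPM per kb), Gimap6 (12.1 ± 1.57), Gimap9 (11.4 ± 1.02) and Gimap3 (9.92 ± 2.09). Gimap1 (2.84 ± 0.71), Gimap7 (2.04 ± 0.95) and Gimap5 (1.83 ± 0.18 CPM per kb) were lowest. Neighbours in this order overlapped between libraries for Gimap6 and Gimap9, Gimap9 and Gimap3, Gimap1 and Gimap7, and Gimap7 and Gimap5. With AZD1152, Gimap3 stood at 3.82 ± 1.55 CPM per kb (SD, n = 4), below every library of Gimap9 (11.6 ± 1.39), and Gimap7 at 0.72 ± 0.24 was the lowest member. The lengths count all annotated exons, used in the kidney or not.

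The counts of some members depend on how reads of overlapping or similar genes were assigned. Gimap3 and Gimap5 share 140 identical bases of coding sequence, at positions 175 to 314 of 903 in Gimap3 and 187 to 326 of 924 in Gimap5, counted from the A of the start codon. Only the longest shared stretch of each pair was searched for, and in every other pair of members it was at most 17 bases. The shared stretch, read from the GENCODE transcripts, is shown because reads within it cannot be placed in 1 of these genes:
Gimap3 and Gimap5: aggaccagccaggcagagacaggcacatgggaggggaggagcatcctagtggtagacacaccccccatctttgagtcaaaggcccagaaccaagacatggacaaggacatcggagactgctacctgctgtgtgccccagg
Of all 100-base stretches in their transcripts, 1.65% of those of Gimap3 occur also in Gimap5 and 0.97% of those of Gimap5 in Gimap3. For 50-base stretches these shares are 7.52% and 4.53%. Gm28053, a gene that joins exons of Gimap7, Gimap1 and Gimap5 in 1 transcript, shares exonic positions with these 3 members, and the antisense gene Gimap1os overlaps Gimap1. Gimap1 has 1107 of its 3073 exonic positions in common with such genes, Gimap5 3.69% and Gimap7 3.48%, and the other 5 members have 0%. Gm28053 itself had 6, 6 and 14 counts with vehicle and 4, 1, 1 and 0 counts with AZD1152 and did not pass the filter on low counts. Gimap1os had 0.64, 1.60 and 0.55 CPM with vehicle and 0.42, 0.27, 0.26 and 0.42 CPM with AZD1152, again highest in vehicle replicate 2. Its log2 fold change of -1.42 ± 0.48 missed the threshold (edgeR adjusted p = 0.105). Because the sources used here do not give the strand setting of the counting, reads of Gimap1 and its antisense partner cannot be told apart.

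The fold changes of the members are set here beside those of marker genes, with no test of likeness. Of 18 tested genes of the T cell receptor complex and its signalling, 11 fell, with a median log2 fold change of -1.44. All 18 estimates were negative, but not of like size. Cd8a, the most abundant gene of the list, had overlapping groups, with 30.3 ± 5.99 and 25.4 ± 2.45 CPM (SD, n = 3 and n = 4; edgeR adjusted p = 0.314). The smallest p-values were those of Lat, an adaptor of the receptor (log2 fold change -1.77 ± 0.20), Cd3g, a chain of the complex (-1.51 ± 0.25), and Lck, its kinase (-1.49 ± 0.26), with edgeR adjusted p = 0.009, 0.0139 and 0.0175. The 19 genes of this list summed to 124.1 to 209.6 CPM with vehicle, highest in replicate 2, and to 56.1 to 91.1 CPM with AZD1152. That sum was highest in AZD1152 replicate 1 and lowest in AZD1152 replicate 2 among treated libraries, as was Gimap3. Gimap7 did not share this order: it was highest in AZD1152 replicate 1 (2.30 CPM) but lowest in AZD1152 replicate 3 (1.08 CPM). Of 10 tested genes of natural killer and cytotoxic cells 6 fell, with a median of -1.38. Ccl5, a chemokine of activated lymphocytes, went from 36.3 ± 9.09 to 9.26 ± 2.81 CPM (SD, n = 3 and n = 4; edgeR adjusted p = 0.00951). Ncr1 and Klrb1c of the same list did not pass the filter on low counts. They had 0.19 and 0.13 CPM with vehicle and 0.31 and 0.15 CPM with AZD1152. In edgeR 0 of 20 endothelial genes were called (2 had an unadjusted p under 0.05, beside 3912 of 15774 genes tested). DESeq2 called 0 of these 20, and their median was -0.10. Scaling by total counts gave 1 call and a median of -0.25. Pecam1, an adhesion molecule of endothelial cells, had 98.9 ± 25.6 and 84.4 ± 5.06 CPM (SD, n = 3 and n = 4; edgeR adjusted p = 0.402), and Flt1, a receptor of vascular growth factor, a log2 fold change of 0.33 ± 0.13 (SE; edgeR adjusted p = 0.169). Ramp2, a partner of the adrenomedullin receptor, had the smallest p of the list, with 25.98 ± 0.51 and 20.7 ± 2.35 CPM (edgeR adjusted p = 0.094). The endothelial list summed to 846.1 to 1118 CPM with vehicle and 958.1 to 1085 CPM with AZD1152. No gene of these lists was at 0 in all libraries, so the renal tissue held RNA of both cell types, and the part of either in the Gimap values was not tested. Without vehicle replicate 3 the T cell genes called were 1, and without vehicle replicate 2 or AZD1152 replicate 4 they were 4, while the median stayed between -1.61 and -1.14 without any 1 library.

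**Figure D2:**
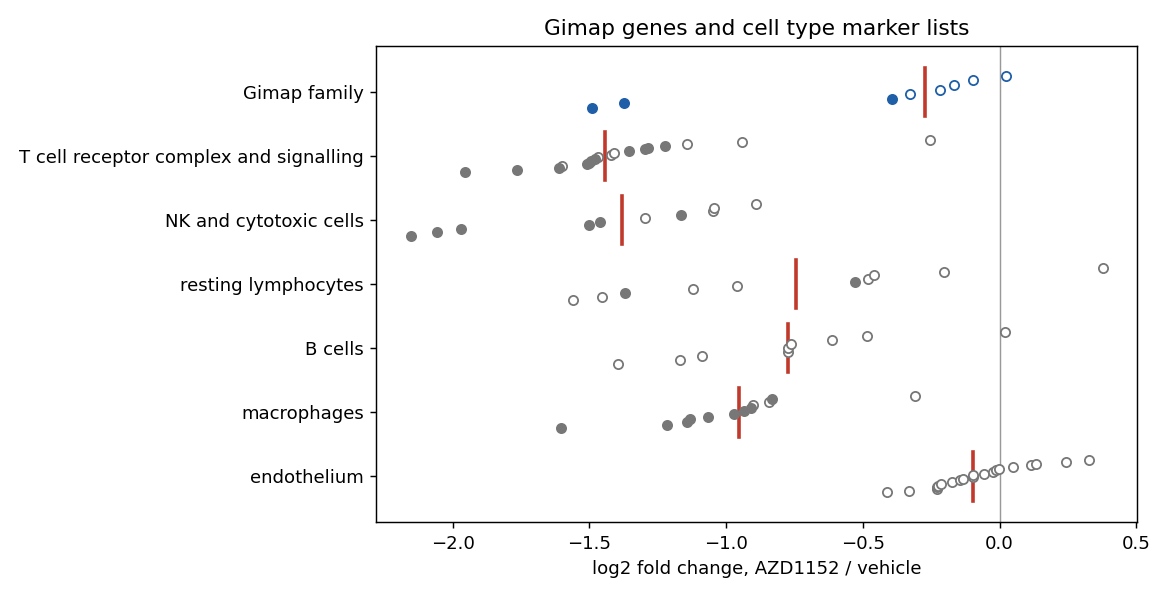
Log2 fold change of AZD1152 over vehicle (x axis) for the 8 Gimap genes (blue) and the tested genes of 6 marker lists (grey), each point 1 gene, filled where the adjusted p is under 0.05, with the list median as a red bar. Gimap3 and Gimap7 sit at -1.37 and -1.49 and the other members between -0.39 and 0.02. The list medians are -1.44 for T cell, -1.38 for natural killer and cytotoxic, and -0.10 for endothelial genes.

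Markers of further leukocytes differed too. Of 12 macrophage genes 9 fell, with a median of -0.95 and summed levels of 990.1 to 1340 CPM with vehicle and 470.1 to 714.9 CPM with AZD1152. Fcgr1, an antibody receptor, went from 19.2 ± 0.76 to 6.35 ± 2.20 CPM (SD, n = 3 and n = 4; edgeR adjusted p = 0.0111). In edgeR 0 of 9 tested B cell genes were called (4 had an unadjusted p under 0.05, beside 3912 of 15774 genes tested). DESeq2 called 2 of these 9, and the list's median was -0.77. In the list of resting lymphocytes 2 of 10 genes fell, with a median of -0.74, and 0 without any 1 of the vehicle libraries. Among them was Klf2, a factor of quiescence and of endothelial flow responses (log2 fold change -0.53 ± 0.12, edgeR adjusted p = 0.0387). Estimates were negative for 9 of the 10 genes. Foxo1, the most abundant gene of this list, had a positive one and was not called (0.38 ± 0.17, edgeR adjusted p = 0.219). The list's summed levels overlapped, at 123.2 to 169 CPM with vehicle and 120.6 to 151.1 CPM with AZD1152. Tcf7, a transcription factor of naive T cells, had 10.4 ± 6.09 and 3.79 ± 1.71 CPM and did not pass (edgeR adjusted p = 0.073). Without vehicle replicate 1 or 3 the macrophage genes called were 3 and 2. Without vehicle replicate 2 or 3 or AZD1152 replicate 4 the natural killer and cytotoxic genes called were 3, 2 and 3. Of 9 genes of the kidney tubule 3 rose and 0 fell (0 rose without vehicle replicate 1 or 3), and their part in the Gimap values was not tested.

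Each member was then set against the marker lists within a library, as its log2 CPM minus the mean log2 CPM of the list. Relative to the T cell genes, Gimap3 was at 1.87 ± 0.16 with vehicle and 1.80 ± 0.22 with AZD1152, and Gimap7 at -0.59 ± 0.33 and -0.63 ± 0.70 (SD, n = 3 and n = 4). Both differences were smaller than the spread between mice. The same held beside the natural killer and cytotoxic genes, where Gimap3 was at 2.15 ± 0.05 and 2.15 ± 0.38 and Gimap7 at -0.32 ± 0.42 and -0.28 ± 0.80. Relative to the resting lymphocyte genes, Gimap3 differed by -0.67 and Gimap7 by -0.64 between the groups. Relative to the B cell genes they differed by -0.65 and -0.62. With list medians in place of means, these differences were -0.45 and -0.41 for resting lymphocytes and -0.06 and -0.03 for B cells. The other 6 members were higher with AZD1152 relative to the T cell genes, by 0.97 (Gimap4) to 1.38 (Gimap9). The mean log2 CPM of the T cell list itself went from 2.79 with vehicle to 1.43 with AZD1152. A gene that did not change is therefore higher relative to this list. Relative to the endothelial genes, Gimap8 was at 0.88 ± 0.35 and 0.77 ± 0.29, Gimap6 at 0.48 ± 0.11 and 0.34 ± 0.08, and Gimap1 at -1.80 ± 0.38 and -1.82 ± 0.11. Gimap9 was at -0.68 ± 0.17 and -0.60 ± 0.24, Gimap5 at -1.98 ± 0.16 and -2.23 ± 0.14, and Gimap4 at 1.06 ± 0.29 and 0.73 ± 0.15. Gimap3 dropped by 1.37 and Gimap7 by 1.33 relative to these genes. Relative to the macrophage genes Gimap3 differed by -0.43 and Gimap9 by 1.02 between the groups. These differences are descriptions without a test.

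**Figure D3:**
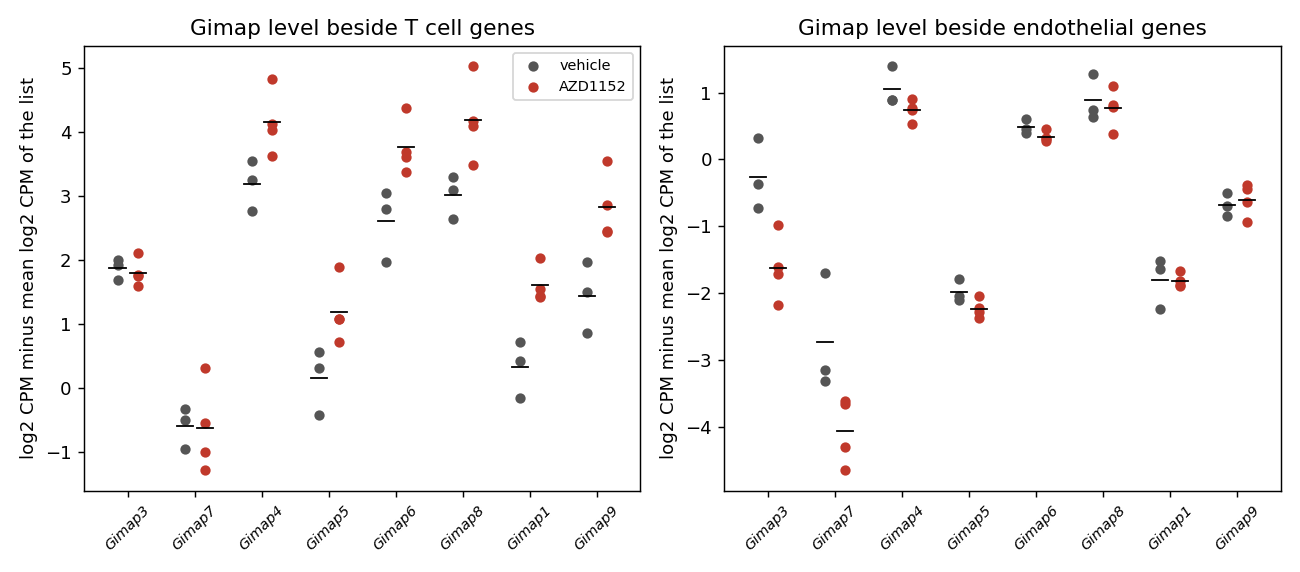
Log2 CPM of each Gimap gene minus the mean log2 CPM of the T cell list (left) or of the endothelial list (right), 1 point per library (grey vehicle, red AZD1152), with group means as black lines. Beside the T cell genes the group means are close for Gimap3 (1.87 and 1.80) and Gimap7 (-0.59 and -0.63). Beside the endothelial genes they differ by -0.33 for Gimap4, -0.25 for Gimap5, -0.14 to 0.08 for Gimap1, Gimap6, Gimap8 and Gimap9, and by -1.37 and -1.33 for Gimap3 and Gimap7.

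The 8 genes occupy 123.6 kb of chromosome 6 in the order Gimap8, Gimap9, Gimap4, Gimap6, Gimap7, Gimap1, Gimap5 and Gimap3. The members that fell most were not next to each other, as Gimap1 and Gimap5 lie between Gimap7 and Gimap3. Gimap1os, which lies there too, had a log2 fold change of -1.42 ± 0.48 and was not called (edgeR adjusted p = 0.105). Gm28053, which runs from Gimap7 to Gimap5, was not tested and had 0.49 ± 0.25 CPM with vehicle and 0.09 ± 0.10 CPM with AZD1152. Within 250 kb on either side or inside the cluster, 19 genes that are no members were tested. Of these, 1 was lower, beside 4.81% of all genes tested, and 2 were higher, beside 3.02%. Estimates were negative for 8 of the 19, beside 50.1% of all genes. Counts this small do not set the locus apart from all genes. Aoc1, which encodes diamine oxidase, an enzyme that degrades histamine and polyamines, had 31.0, 16.7 and 48.4 CPM with vehicle and 8.34, 4.64, 11.9 and 6.51 CPM with AZD1152 (log2 fold change -2.02 ± 0.38, edgeR adjusted p = 0.0202). Its groups did not overlap, but its call was lost without vehicle replicate 1, vehicle replicate 3 or AZD1152 replicate 4. Zfp467 and AI854703, on the other side of the cluster, rose, with log2 fold changes of 0.43 ± 0.07 (SE; edgeR adjusted p = 0.0127) and 0.50 ± 0.11 (edgeR adjusted p = 0.0348). The abundant pair Tmem176a and Tmem176b had -0.21 ± 0.09 and -0.28 ± 0.08 and did not pass (edgeR adjusted p = 0.185 and 0.0712). Their groups did not overlap, with vehicle higher, as was so for 11.6% of all genes.

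**Figure D4:**
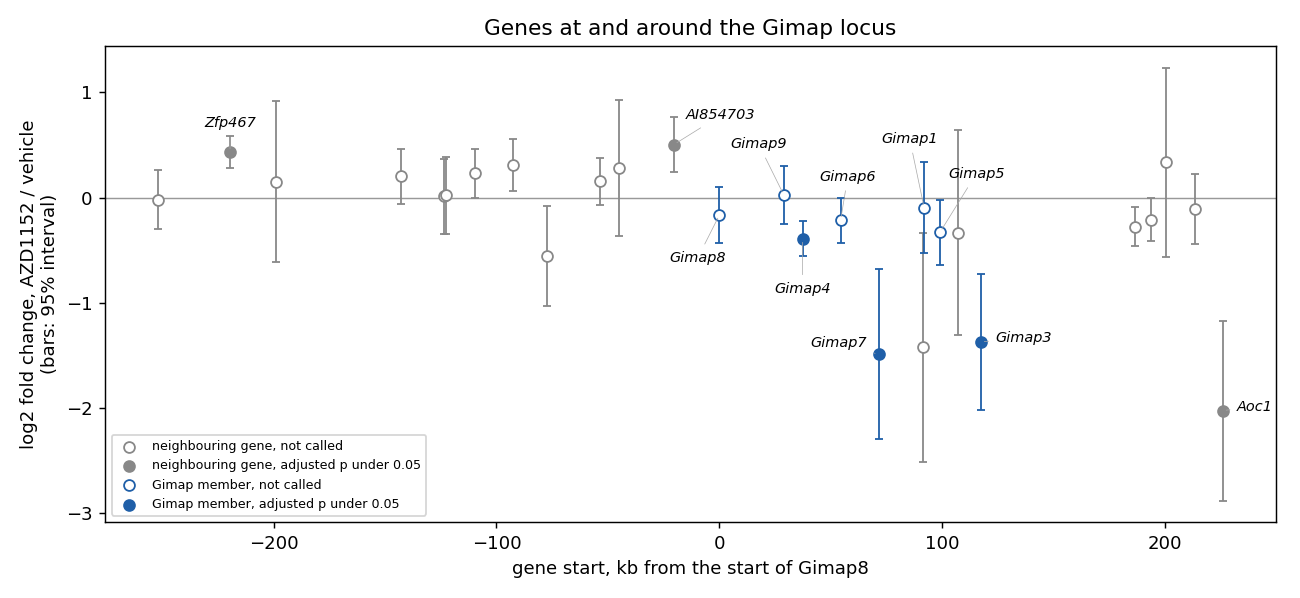
Log2 fold change of AZD1152 over vehicle with its 95% interval (y axis) for tested genes of the locus, by distance in kb of the gene's lower coordinate from the start of Gimap8 (x axis), with members in blue and neighbours in grey, filled where the adjusted p is under 0.05. The lowest members, Gimap7 (-1.49) and Gimap3 (-1.37), are separated by Gimap1 (-0.10) and Gimap5 (-0.33). The neighbour Gimap1os (-1.42, not called) also lies between them.

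The promoters were compared because estimates of neighbouring members ranged from -1.49 to 0.02 on the log2 scale. RefSeq (GRCm38.p6) gave a 300-base window around the gene start for all 8 members, with a second window for Gimap8. Shown are the windows of the 3 members that fell and of Gimap9, whose level differed least, each 5′ to 3′ on the strand of the gene. The gene start is base 251, and capitals mark the motif matches listed after them. The windows are chr6:48770802-48771101 (minus strand) for Gimap3, chr6:48718371-48718670 (plus) for Gimap7, chr6:48684328-48684627 (plus) for Gimap4 and chr6:48675885-48676184 (plus) for Gimap9:
Gimap3: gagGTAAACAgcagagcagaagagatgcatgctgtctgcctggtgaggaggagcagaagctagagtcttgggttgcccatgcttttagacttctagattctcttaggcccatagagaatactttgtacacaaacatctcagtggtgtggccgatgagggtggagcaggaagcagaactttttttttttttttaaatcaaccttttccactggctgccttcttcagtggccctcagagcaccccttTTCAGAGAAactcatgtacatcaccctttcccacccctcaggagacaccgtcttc
Gimap7: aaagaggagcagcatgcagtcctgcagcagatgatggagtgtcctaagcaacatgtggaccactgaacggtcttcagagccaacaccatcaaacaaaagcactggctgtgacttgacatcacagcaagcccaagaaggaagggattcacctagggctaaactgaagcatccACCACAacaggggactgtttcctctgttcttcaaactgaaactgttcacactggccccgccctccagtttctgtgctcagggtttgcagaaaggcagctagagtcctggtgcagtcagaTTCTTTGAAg
Gimap4: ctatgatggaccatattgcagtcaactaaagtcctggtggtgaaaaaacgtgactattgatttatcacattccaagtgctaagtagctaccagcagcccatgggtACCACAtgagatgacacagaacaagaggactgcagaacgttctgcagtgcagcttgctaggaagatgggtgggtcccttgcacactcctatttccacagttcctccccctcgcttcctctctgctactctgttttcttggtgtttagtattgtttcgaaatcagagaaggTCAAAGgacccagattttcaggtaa
Gimap9: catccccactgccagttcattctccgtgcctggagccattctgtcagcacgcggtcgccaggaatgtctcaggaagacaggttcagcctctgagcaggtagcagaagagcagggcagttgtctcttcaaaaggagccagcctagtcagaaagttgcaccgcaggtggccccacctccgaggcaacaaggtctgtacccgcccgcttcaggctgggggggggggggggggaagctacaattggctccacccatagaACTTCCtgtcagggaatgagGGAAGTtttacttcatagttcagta
Short core motifs of 8 factor families were searched on both strands in the first window of each member. GTAAACA (FOXO) was found in Gimap3 alone and in 3.6% of 32851 RefSeq windows. TTCNNNGAA (STAT) was found in Gimap3, Gimap6 and Gimap7, beside 8.3% of all windows. CTTTGA (TCF/LEF) was found in Gimap4 and Gimap7 (16.0% of all windows), and in Gimap7 it lies inside the STAT match. TGTGGT (RUNX) was found in Gimap1, Gimap4 and Gimap7 (16.8%), and GGAAGT (ETS) in Gimap1, Gimap5, Gimap6 and Gimap9 (23.8%). The GATA motif AGATAA was in 0 of 8 members and 11.2% of all windows. The IRF motif GAAANNGAA was in 0 of 8 members and 8.6% of windows, and the KLF motif CACACCC in 0 of 8 and 8.0%. No motif was shared by the 3 members that fell and lacking in the other 5. Matches of such short letters describe these windows only.

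Genes that work with the family or in lymphocyte survival did not follow 1 direction. Of 17 tested, 3 fell and 1 rose, and their median on the log2 scale was -0.15. Without vehicle replicate 1 only 1 of them fell. Il2rg, the common chain of the receptors for interleukin-7 and related cytokines, went from 6.55 ± 1.40 to 3.00 ± 0.41 CPM (SD, n = 3 and n = 4; edgeR adjusted p = 0.0189). Jak3, the kinase bound to it, went from 60.6 ± 9.79 to 37.1 ± 6.25 CPM (edgeR adjusted p = 0.0263). Bak1, a pore-forming protein of apoptosis, fell by 0.76 ± 0.10 (log2 scale, SE; edgeR adjusted p = 0.00985). Gabarapl1, an autophagy protein of the ATG8 family, rose from 515.1 ± 40.9 to 834.0 ± 69.2 CPM (edgeR adjusted p = 0.0108). Its relative Gabarapl2, which Gimap6 binds, had 70.9 ± 4.33 and 78.0 ± 3.78 CPM (edgeR adjusted p = 0.271). Bcl2, the survival factor of resting lymphocytes, had 27.7 ± 1.04 and 23.5 ± 1.36 CPM (edgeR adjusted p = 0.137). Jak3, Gabarapl2 and Bcl2 were chosen after their values were seen. T cell genes (median -1.44) moved beside these, and their part was not tested.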

How the data were processed

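RNA of whole renal tissue was sequenced in 7 mice, 3 given vehicle and 4 given AZD1152, with 14692113 to 17036862 counts per library. The authors deposited raw read counts per Ensembl gene. CASAVA, HISAT2 2.0.5, DESeq, DESeq2 and the build GRCm38 are named in the submitters' processing notes, and the counter, its strand setting and its annotation are not given in the sources used here. Symbols and positions came from GENCODE M21 (GRCm38), which named 53274 of 53465 identifiers.

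Genes with low counts were removed by filterByExpr, TMM factors were applied, and edgeR 4.0.16 (quasi-likelihood test, R 4.3.3) was fitted with group as the only term. Genes with a Benjamini-Hochberg adjusted p under 0.05 over 15774 genes were called. Log2 CPM used a prior count of 2. Alternatives were other scalings and filters, DESeq2 1.42.0, limma 3.58.1 voom, a replicate block and each library left out. The members and lists were chosen with earlier results of these data known. Named genes were the members, tested genes within 250 kb, up to 3 genes with the smallest p per list, and the 5 genes most correlated with the members. Of these, 2 genes are not reported here. All 21 pairs of libraries differed beyond sampling noise (lowest chi-square per degree of freedom 9.97). A count of 3 corresponds to 0.176 to 0.204 CPM, and such limits cover counting error only. Each of 5 simulated data sets had 200 changed genes among about 15543. In these, 29%, 60% and 91.2% of genes changed by 1.5, 2 and 4-fold were recovered, with 5.09% false calls. The measured data had more calls (759 lower and 476 higher), so these shares need not hold there. Changes below 1.5-fold were not simulated.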

Additional observations from a re-analysis of the deposited data

How the results depend on the processing

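The number of members called lower was 3 with RLE, upper-quartile and total-count scaling, without a filter, with a filter of 1 CPM, with DESeq2 and with limma voom, and 0 to 3 with 1 library left out. The calls over all genes (476 higher, 759 lower) became 232 and 1482 under scaling by total counts, which moved the median of all genes to -0.151. DESeq2 called 954 higher. With 1 library left out they were 60 to 475 higher and 163 to 619 lower. Neighbours called lower were 3 under total counts, 2 with DESeq2 and 0 to 1 with 1 library left out. With a replicate block, 0 members, 63 higher and 146 lower genes were called (edgeR adjusted p = 0.106 for Gimap3, 0.0658 for Gimap4 and 0.0888 for Gimap7). No vehicle library has the number of AZD1152 replicate 4, so that library does not inform the group difference in the blocked fit. Fewer calls there therefore go with fewer mice as well as with the block. The labels do not say whether the numbers pair the mice. Same-numbered deviations from the group means correlated at -0.288, 0.209 and -0.119, and with so few libraries these values cannot exclude pairing. The Gimap9 estimate changed sign under total counts (-0.13), the replicate block (-0.0333), and without vehicle replicate 2, AZD1152 replicate 2 or AZD1152 replicate 4 (range -0.0438 to 0.093 with 1 library left out), and that of Gimap1 without vehicle replicate 3 (range -0.246 to 0.113). Taking the median over macrophage genes and over members changed the members' difference from that list from 0.51 to -0.0778. The causes of these shifts were not tested. With 3 against 4 mice, 29% of the simulated 1.5-fold changes were recovered. Changes as small as those of Gimap5 and Gimap6 were not simulated and may go undetected.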

Other observations

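The septins, relatives of the Gimap proteins that form filaments in most cells, had negative estimates for all 11 tested genes, with a median log2 fold change of -0.37. In edgeR 0 of 11 were called, with 6 at an unadjusted p under 0.05, and DESeq2 called 3 lower. Of all 15774 genes tested, 3912 had an unadjusted p under 0.05 in edgeR, 50.1% had negative estimates, and DESeq2 called 1137 lower. The smallest p-values were those of Sept8, with 41.9 ± 5.60 and 32.4 ± 2.64 CPM (SD, n = 3 and n = 4; edgeR adjusted p = 0.0725), Sept1, with 11.2 ± 3.41 and 6.16 ± 1.62 CPM (edgeR adjusted p = 0.0754), and Sept3, with 3.60 ± 0.91 and 1.83 ± 0.63 CPM (edgeR adjusted p = 0.0819). Under scaling by total counts 5 were lower.

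Over the 7 libraries, the genes whose log2 CPM followed the mean of the members most closely among 14547 genes included Cnp (Pearson r = 0.990), Meis3 (0.980), Gm5637 (0.979) and Hap1 (0.979). After group means were subtracted, these were Rnf19a (0.989), Cttn (0.978), Pdgfa (0.977), Qsox1 (0.977) and Nlgn2 (0.973). These genes were picked as the highest of many over few libraries that share depth and group, so the correlations are descriptions only.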
